A study of Mus musculus with 18 samples.

Results

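The comparison described here sets the 3 arrays of G1E-ER4 cells taken after 14 h in estradiol against the 3 arrays taken before estradiol, at 0 h. These 6 arrays were chosen by their titles from a series of 18, which holds 3 arrays at each of 6 times (0, 3, 7, 14, 21 and 30 h). G1E-ER4 is an established mouse erythroid line in which the Gata1 gene is disrupted and which carries a fusion of GATA1 to the estrogen receptor's hormone-binding part. Both groups share this genotype, were growing in log phase, and differ in the hours spent in 20 nM estradiol, which activates the fusion. Total RNA was extracted with Trizol, labelled with biotin and hybridised to an Affymetrix mouse array. The labels number each group's arrays as biological replicates and do not say whether separate cultures were used. A p-value here therefore reflects only how far arrays of the same time scatter, pooled over the 6 times, and that scatter may be technical. No arrays of cells kept for 14 h without estradiol were analysed here, and hormone, fusion activity and culture time cannot be told apart. All arrays come from a single cultured line.

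GATA1 is the transcription factor that erythroid cells need to leave the progenitor state. It takes over sites in DNA that GATA2 held, switching on genes for hemoglobin, heme, iron handling and the red cell membrane and switching off genes of progenitors and of other blood lineages. A maturing erythroblast goes through a last series of divisions, shrinks, condenses its chromatin, and clears its organelles. The 14 h cells lie midway in the course, between the proliferating precursor and the most mature cells sampled, at 30 h.

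Values are log2 signals, and a difference of 1 is a doubling. A gene passed the test when its Benjamini-Hochberg adjusted p from limma was below 0.05, over 12720 genes tested with 1 probe set each. The 6 arrays were close in overall distribution, with array medians between 4.05 and 4.09. Between arrays of the same time, Pearson correlations over the tested genes ran from 0.9967 to 0.9974 at 0 h and from 0.9966 to 0.9973 at 14 h, against 0.977 to 0.978 between the times. Genes are not independent replicates, and these correlations describe the arrays only. Replicate 1 at 14 h stood apart in a small set of genes: among 8546 genes with a 14 h mean above the 60th percentile level of 5.28, 24 were at least 1 lower there than on both other arrays while those lay within 0.5 of each other. No gene stood out in that way on replicate 2 or 3 at 14 h, or on replicate 1 or 3 at 0 h, and 2 did on replicate 2 at 0 h. Results that rest on this array are given with and without it.

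Erythroid markers were already present before estradiol. Of 10 defining markers, 8 were tested. At 0 h the means of Gata1, Klf1, Tal1, Epor, Tfrc, Alas2, Hbb-b2 and Slc4a1 lay between the 63.5th and the 99.3rd percentile of all probe sets, with Alas2 and Slc4a1 the lowest of them. The Gata1 probe set itself gave 10.15, 10.17 and 10.30 at 0 h and 10.17, 10.32 and 10.31 at 14 h, a difference of 0.06 (SE 0.081, adjusted p = 0.593). Its ranges overlapped between the times. No source used here places the probe set on the disrupted gene or on the fusion, so its level checks neither.

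By 14 h, 5716 of the 12720 genes tested (44.9%) had passed the test, 2829 higher (22.2%) and 2887 lower (22.7%). Most changes were small, with a median size of 0.48 among the genes that passed. At least 2-fold changes that also passed numbered 403 higher (3.17%) and 475 lower (3.73%). On 6608 genes (51.9%) the arrays of the 2 times did not overlap. Few changes were large: 73 rose and 93 fell at least 4-fold, 27 rose and 23 fell at least 8-fold, and 3 rose and 1 fell at least 32-fold. The balance between rises and falls depended on the scale. Arrays were also scaled to 18 hybridisation control probe sets, whose mean was 0.23 lower at 14 h. Control means overlapped between the times, from 11.67 to 12.12 at 0 h and from 11.66 to 11.81 at 14 h, so that difference lies within the spread of the 0 h arrays. With this scaling the median of all genes moved up by that amount and 2791 genes passed as higher against 812 as lower. Directions below are relative to the median of all genes, which differed by 0.02 between the times as deposited. Where this scaling alters a list's counts, its counts or the lost calls are given beside it. The counts of every list below are to be read beside the 22.2% and 22.7% of all genes that rose and fell.

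**Figure D1:**
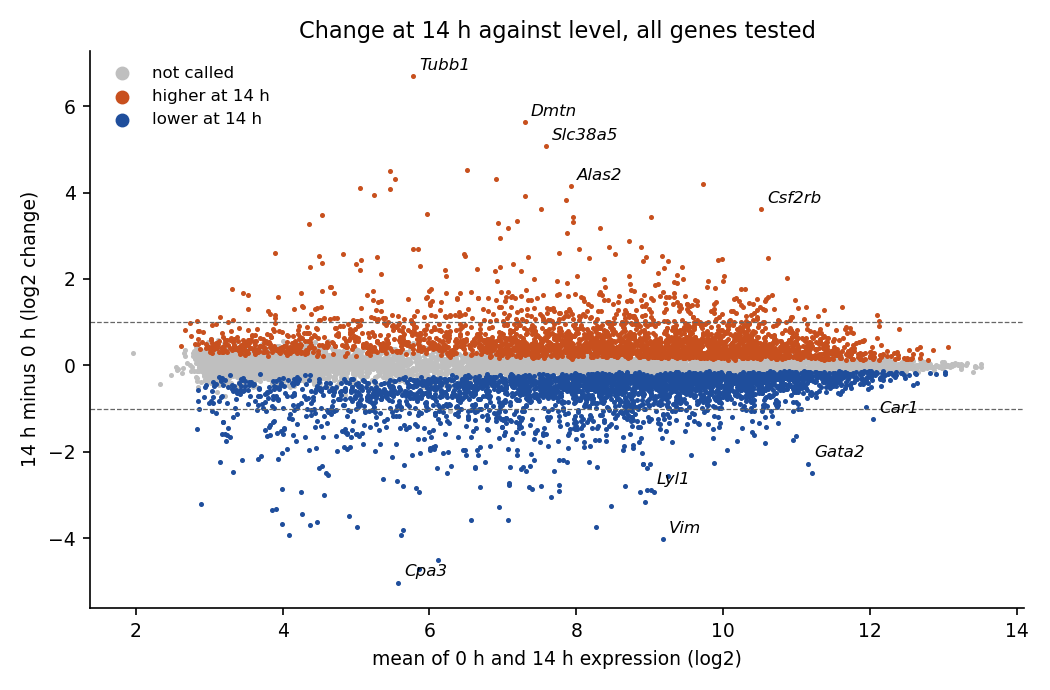
Mean log2 signal over the 6 arrays (horizontal) against log2 change from 0 h to 14 h (vertical) for the 12720 genes tested, coloured where the limma adjusted p was below 0.05. The bulk of the genes lies close to 0, and Tubb1 and Dmtn lie farthest above it, Cpa3 farthest below.

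The 12 largest rises and 12 largest falls are named, among genes that passed, whose arrays did not overlap, and whose higher mean lay above 5.28. The largest rise was that of Tubb1, which encodes the beta tubulin isotype of the platelet marginal band. Its signal was 2.73, 2.01 and 2.56 at 0 h and 9.13, 9.12 and 9.13 at 14 h, a change of 6.69 (SE 0.13, 104-fold, adjusted p = 4.52e-15). All 0 h arrays were below the arrays' 40th percentile (3.22 to 3.25), where signals carry little information, so the fold is uncertain. The means at 3 h and 7 h were 4.16 and 7.26, and the mean at 30 h was 10.62.

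Dmtn, which encodes the actin-bundling protein dematin of the red cell membrane skeleton, gave 4.31, 4.61 and 4.51 at 0 h and 10.08, 10.15 and 10.12 at 14 h. The rise was 5.64 (SE 0.081, 49.7-fold, adjusted p = 2.79e-16). Its other probe sets rose by 4.13 and 1.44, so the fold depends on the probe set. Slc38a5, a sodium-coupled transporter of glutamine, serine and glycine, gave 5.06, 4.93 and 5.16 at 0 h and 10.17, 10.08 and 10.10 at 14 h, a rise of 5.07 (SE 0.085, 33.5-fold, adjusted p = 8.15e-16). Csf2rb2, a signalling chain of the interleukin-3 receptor, was well above background before estradiol, at 7.62, 7.57 and 7.68, and reached 11.87, 11.78 and 11.84. That was a rise of 4.21 (18.5-fold, adjusted p = 8.15e-16). Alas2, the erythroid enzyme for the first step of heme synthesis, rose by 4.15 (SE 0.082, 17.7-fold, adjusted p = 5.19e-15), from 5.64, 5.94 and 5.96 to 9.90, 9.97 and 10.11.

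The other named rises ran from 3.92 to 4.51. They were Hbb-bh1, an embryonic beta-like globin (4.51), Gsdma, a member of the gasdermin family of pore-forming proteins (4.50), Rhof, a small GTPase that shapes filopodia (4.31), Tulp2, a tubby-like protein (4.30), Tmem184a (4.11), the riboflavin transporter Slc52a3 (3.94) and Tmem120b (3.92). Of the 12 largest rises, 3 started from a 0 h mean below the 40th percentile: Tubb1, Gsdma and Tmem184a. Hbb-bh1 started low, at 4.51, 3.93 and 4.33, and reached 8.49, 8.96 and 8.85. It went on to a 30 h mean of 11.58.

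The deepest fall was that of Cpa3, a carboxypeptidase of mast cell granules. It gave 8.08, 7.89 and 8.28 at 0 h and 2.73, 3.53 and 2.92 at 14 h, a change of -5.02 (SE 0.24, 32.5-fold, adjusted p = 1.34e-10). Vim, the intermediate filament protein vimentin, fell from a high level. Its 0 h arrays were at 11.12, 11.17 and 11.25 and its 14 h arrays at 7.19, 7.13 and 7.18, a fall by 4.01 (SE 0.11, 16.1-fold, adjusted p = 1.55e-13), and its probe sets on the array gave falls of 3.78 to 4.21. The mean was still 10.88 at 3 h and 10.41 at 7 h before reaching 7.17 at 14 h.

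Hoxc8, a homeobox transcription factor, fell by 3.74 (13.4-fold, adjusted p = 2.83e-11), from 10.05, 10.08 and 10.27 to 6.39, 6.45 and 6.34. The remaining large falls were those of Tespa1, an adaptor of antigen receptor signalling (-4.71), Armcx4 (-4.51), the actin-bundling protein Lcp1 of leukocytes (-3.92), the surface glycoprotein Cd109 (-3.91), the actin-binding protein Nebl (-3.81), the zinc finger factor Sall2 (-3.73), Clca3a1 (-3.69), the CD200 receptor family member Cd200r4 (-3.66) and the granule protease Gzmb (-3.62). Some of these sizes depended on the probe set. On other probe sets Tespa1 fell by 3.19 and 1.99, Clca3a1 by 2.66, Cd109 by 2.38 and Nebl by 1.78. Another of Nebl gave -0.30 without passing. Vim and Hoxc8 kept a clear signal at 14 h. For 6 of the 12 falls, namely Cpa3, Lcp1, Sall2, Clca3a1, Cd200r4 and Gzmb, the 14 h mean was below the 40th percentile, so the size of those falls is uncertain. In bulk RNA, fewer cells of a type and less RNA per cell cannot be told apart.

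**Figure D2:**
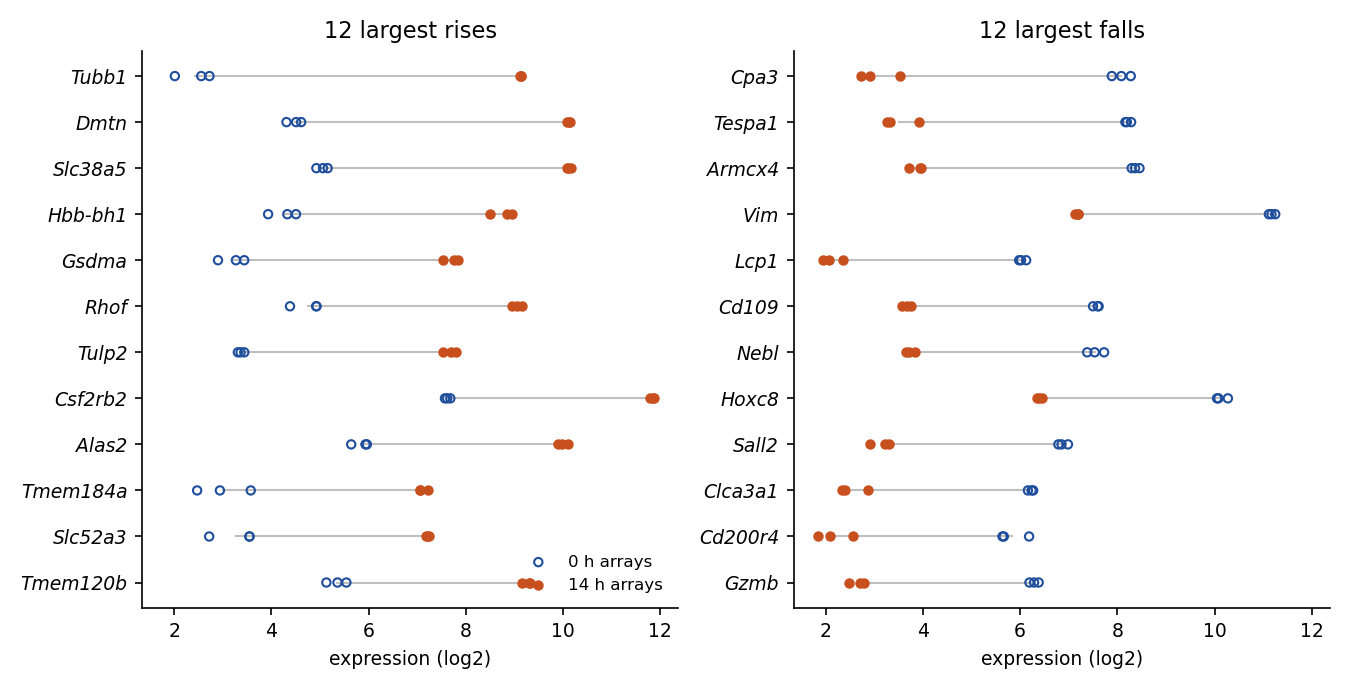
Log2 signal of each of the 3 arrays at 0 h and the 3 at 14 h for the 12 largest rises and the 12 largest falls that passed the test. The choice of genes required the 2 times to be separate, and the spread within a time is widest for genes near the low end of the scale.

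The promoters of these genes are shown because GATA factors bind the words written here, and because these genes had the largest changes by 14 h. Sequences are the 250 bases before the start, 5′ to 3′ along the gene's strand, from RefSeq on GRCm38.p6, and the table used here matched 8 of the 12 rises and 9 of the 12 falls. Capitals mark GATA words on either strand, namely AGATAA and its variant TGATAA, as well as AGATAG and its variant TGATAG. The positions are chr2:174450345-174450594 (plus strand) for Tubb1, chrX:8271131-8271380 (plus) for Slc38a5, chr5:123132630-123132879 (minus) for Rhof, chr7:45486012-45486261 (plus) for Tulp2, chr3:20242182-20242431 (minus) for Cpa3 and chrX:134686269-134686518 (plus) for Armcx4. Those of Alas2, at chrX:150547167-150547416 (plus), and Csf2rb2, at chr15:78305722-78305971 (minus), were added after their values were seen.
Tubb1: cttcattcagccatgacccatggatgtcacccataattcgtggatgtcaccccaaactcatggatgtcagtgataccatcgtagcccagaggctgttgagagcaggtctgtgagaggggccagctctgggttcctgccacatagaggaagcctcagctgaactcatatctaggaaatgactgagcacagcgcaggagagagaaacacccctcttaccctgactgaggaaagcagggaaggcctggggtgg
Slc38a5: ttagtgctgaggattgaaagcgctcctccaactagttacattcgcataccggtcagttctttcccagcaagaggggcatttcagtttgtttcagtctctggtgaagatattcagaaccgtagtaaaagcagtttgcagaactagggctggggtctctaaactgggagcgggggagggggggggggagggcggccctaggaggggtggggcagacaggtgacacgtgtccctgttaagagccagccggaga
Rhof: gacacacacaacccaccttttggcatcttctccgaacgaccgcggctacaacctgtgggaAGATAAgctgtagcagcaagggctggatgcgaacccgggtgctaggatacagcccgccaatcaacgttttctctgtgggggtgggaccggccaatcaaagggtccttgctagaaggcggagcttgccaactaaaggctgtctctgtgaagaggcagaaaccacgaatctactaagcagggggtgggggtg
Tulp2: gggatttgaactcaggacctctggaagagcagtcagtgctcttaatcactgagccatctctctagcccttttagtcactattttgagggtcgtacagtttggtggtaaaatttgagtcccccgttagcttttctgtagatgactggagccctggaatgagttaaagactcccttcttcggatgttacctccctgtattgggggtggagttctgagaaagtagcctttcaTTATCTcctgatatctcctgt
Csf2rb2: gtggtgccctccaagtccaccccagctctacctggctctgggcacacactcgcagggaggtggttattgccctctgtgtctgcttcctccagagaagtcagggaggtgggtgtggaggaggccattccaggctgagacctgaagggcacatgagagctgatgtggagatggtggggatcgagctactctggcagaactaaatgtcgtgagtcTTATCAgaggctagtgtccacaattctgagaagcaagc
Alas2: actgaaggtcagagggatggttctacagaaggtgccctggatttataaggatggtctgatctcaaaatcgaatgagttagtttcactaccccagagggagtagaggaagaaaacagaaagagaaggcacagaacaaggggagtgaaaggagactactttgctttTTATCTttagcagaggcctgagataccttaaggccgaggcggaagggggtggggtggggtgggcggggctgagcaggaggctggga
Cpa3: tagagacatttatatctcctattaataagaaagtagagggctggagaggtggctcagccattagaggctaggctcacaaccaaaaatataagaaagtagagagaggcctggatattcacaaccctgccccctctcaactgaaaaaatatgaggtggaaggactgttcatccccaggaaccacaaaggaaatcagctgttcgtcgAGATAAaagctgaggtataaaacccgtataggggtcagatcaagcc
Armcx4: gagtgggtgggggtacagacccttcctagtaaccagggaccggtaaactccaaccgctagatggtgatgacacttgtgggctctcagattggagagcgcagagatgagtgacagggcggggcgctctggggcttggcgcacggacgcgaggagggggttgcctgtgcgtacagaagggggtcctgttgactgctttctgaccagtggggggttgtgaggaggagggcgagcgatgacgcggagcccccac

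Among the promoters printed, those of Rhof, Tulp2, Csf2rb2, Alas2 and Cpa3 held 1 GATA word each, at 185, 16, 33, 81 and 41 bases from the start. Those of Tubb1, Slc38a5 and Armcx4 held none, which says only that these letters are not in this window. Over all members in the table, 5 of 8 rises and 4 of 9 falls held a match. The share was 27.1% of all 27025 promoters and 17.8% of the 10222 promoters of genes tested. The CACC word CCNCNCCC, a form bound by KLF1, was found on either strand in 7 of 8 rises and 5 of 9 falls, against 45.6% and 63.4%. No GATA match overlapped a CACC match. A match is a description of the sequence and not a binding site.

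The GATA factors and their partners moved unequally. Gata2, the progenitor factor that GATA1 displaces, gave 12.30, 12.30 and 12.28 at 0 h and 10.02, 9.89 and 10.15 at 14 h, and fell by 2.27 (SE 0.062, 4.83-fold, adjusted p = 1.64e-13). Zfpm1, which encodes the GATA1 cofactor FOG1, rose by 1.28 (2.43-fold, adjusted p = 1.39e-08) from a 0 h mean of 9.93 ± 0.15 (SD, n = 3). Klf1, an activator of erythroid genes, rose by 0.76 (adjusted p = 6.91e-09) from an already high 11.31 ± 0.037 (SD, n = 3). The Gata2 fall was spread over the interval, with means of 11.28 at 3 h, 10.83 at 7 h and 10.02 at 14 h.

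Of 20 erythroid transcription factors and partners tested, 11 rose and 4 fell, with a median change of 0.27 against 0.02 over all genes (22.2% and 22.7% of all genes rose and fell). The largest rises were those of Mafk, a small MAF partner of NF-E2 (1.72), Mxd1, a MAX partner that opposes MYC (1.62), and Bach1, a heme-binding repressor (1.54). Sox6, a repressor of embryonic globin genes, fell by 1.81, to a 14 h mean of 4.64. Tal1, the bHLH factor of the GATA1 complex, fell by 0.31, a call lost under control scaling, where 11 rose and 2 fell.

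Of 15 progenitor genes, 1 rose and 7 fell, with a median of -0.18 that turned to 0.05 under control scaling, where the counts stayed at 1 and 7. Lyl1, a bHLH factor related to TAL1, gave 10.52, 10.27 and 10.58 at 0 h and 7.52, 7.59 and 7.60 at 14 h, a fall by 2.88 (7.38-fold, adjusted p = 1.54e-12). Kit, the receptor for stem cell factor, gave 10.07, 10.03 and 10.05 and then 7.72, 7.89 and 7.73, a fall by 2.27 (4.83-fold, adjusted p = 6.74e-10). Neither gene's arrays overlapped between the times. Myc, the growth-promoting bHLH factor, fell by 1.44, from 10.97 ± 0.067 to 9.53 ± 0.16 (SD, n = 3). Fli1, an ETS factor of the megakaryocyte lineage and the single progenitor gene that rose, rose by 1.20.

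Feedback genes of RAS-ERK signalling, which growth factor receptors such as KIT switch on, fell in 7 of 10 cases and rose in 1, with a median of -0.61. Under control scaling 4 fell and 1 rose. Ier3, an immediate early gene, fell by 1.96, with most of its drop by 3 h, where its mean was 5.97 against 7.46 at 0 h. Spry4, an inhibitor of the pathway, gave a 3 h mean of 7.16 and a 7 h mean of 6.95, near the 0 h mean of 6.97, before a 14 h mean of 5.05. Its fall from 0 h was 1.92 (adjusted p = 1.46e-07). Etv5, an ETS factor, fell by 1.45, and Egr1, a zinc finger immediate early factor, by 1.42. Phlda1, which carries a pleckstrin homology-like domain, was the member that rose (1.36).

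Of 16 cytokine receptor and JAK-STAT genes, 6 rose (37.5%, against 22.2% of all genes) and 3 fell (18.8%, against 22.7%), with a median of 0.19. Csf2rb, the shared beta chain of the GM-CSF, interleukin-3 and interleukin-5 receptors, gave 8.76, 8.64 and 8.70 at 0 h and 12.40, 12.34 and 12.22 at 14 h, a rise of 3.62 (12.3-fold, adjusted p = 8.15e-16). Csf2rb and Csf2rb2 lie next to each other and are closely similar in sequence, so how probe sets share signal between them is uncertain. The 2 STAT5 genes, which carry the erythropoietin signal, moved in opposite directions: Stat5a fell by 0.99 (adjusted p = 5.98e-08) and Stat5b rose by 0.97 (adjusted p = 5.85e-11). Their 0 h means were 10.46 and 8.99 and their 14 h means 9.47 and 9.97. Socs3, a feedback inhibitor of JAK kinases, fell by 1.43 on the probe set used. Of its other probe sets, 1 fell by 0.77 and 1 gave 0.19 without passing, at means of 3.14 and 3.33 near the 40th percentile.

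Among red cell membrane and skeleton genes, 14 of 19 rose and 1 fell, and the median was 1.03 against 0.02 over all genes. Slc4a1, the band 3 anion exchanger, gave 6.37, 6.35 and 6.29 at 0 h and 9.46, 9.35 and 9.40 at 14 h, a rise of 3.06 (SE 0.082, 8.36-fold, adjusted p = 1.38e-13). Its course was not steady, with a 3 h mean of 5.09, below every 0 h array, and a 7 h mean of 6.48. Sptb, erythroid beta spectrin, rose by 2.58, Icam4, the Landsteiner-Wiener antigen, by 2.25, and Tmcc2, a coiled-coil membrane protein, by 1.87. Dmtn is a member too. Tmod1, which caps actin filaments, was the member that fell, by 0.27, and it did not pass under control scaling, where 13 rose and none fell.

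Globin genes differed by chain. Of 5 tested, 4 rose and none fell, with a median of 1.77 on 1 probe set each. Hba-x, the embryonic zeta chain, gave 3.81, 3.99 and 3.69 at 0 h and 6.16, 6.19 and 6.18 at 14 h, a rise of 2.35 (5.10-fold, adjusted p = 2.04e-08), after means of 3.44 at 3 h and 3.78 at 7 h. Hbb-y, the embryonic epsilon-like chain, rose by 1.77 (adjusted p = 0.000568) but only to 4.19 ± 0.52 (SD, n = 3), and its mean was 9.26 at 30 h. Its call was lost without probe sets that match several transcripts, where another probe set gave 0.16. The adult chains started high on the probe sets used, with 0 h means of 11.29 for Hbb-b2 and 10.43 for Hba-a2. Hbb-b2 gave a difference of 0.22 (adjusted p = 0.0214). It did not pass without replicate 1 or 2 at 0 h or replicate 2 at 14 h (0.19, 0.20 and 0.21), or under control scaling. Its other probe set had lower means, 5.94 at 0 h and 6.50 at 14 h, and a change of 0.56 that did not pass in limma (adjusted p = 0.187). Hba-a2 gave 0.13 (adjusted p = 0.327). Hba-a1 was not tested, and Hbb-b1, Hbb-bs and Hbb-bt had no probe set naming 1 gene. Globin genes are near-identical copies, so the split of signal between them is uncertain.

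Heme synthesis enzymes rose in 6 of 8 cases and none fell, with a median of 0.63. Besides Alas2, Uros, which closes the porphyrin ring, rose by 1.59 (from 8.46 ± 0.14 to 10.06 ± 0.094, SD, n = 3). Ppox, protoporphyrinogen oxidase, rose by 1.49 and Alad, the second enzyme of the pathway, by 0.90. Alas1, the housekeeping counterpart of Alas2, gave -0.16 and did not pass. Among 16 genes of iron uptake and mitochondrial supply, 9 rose and 1 fell (median 0.33). Slc25a37, mitoferrin, which imports iron into mitochondria, rose by 1.77, Slc25a38, a glycine carrier of mitochondria, by 1.52, and Abcb10, an inner-membrane transporter that supports heme synthesis, by 1.39. Tfr2, the second transferrin receptor, was the member that fell, by 1.42 (adjusted p = 5.08e-08), from 11.29 ± 0.12 to 9.87 ± 0.18 (SD, n = 3).

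**Figure D3:**
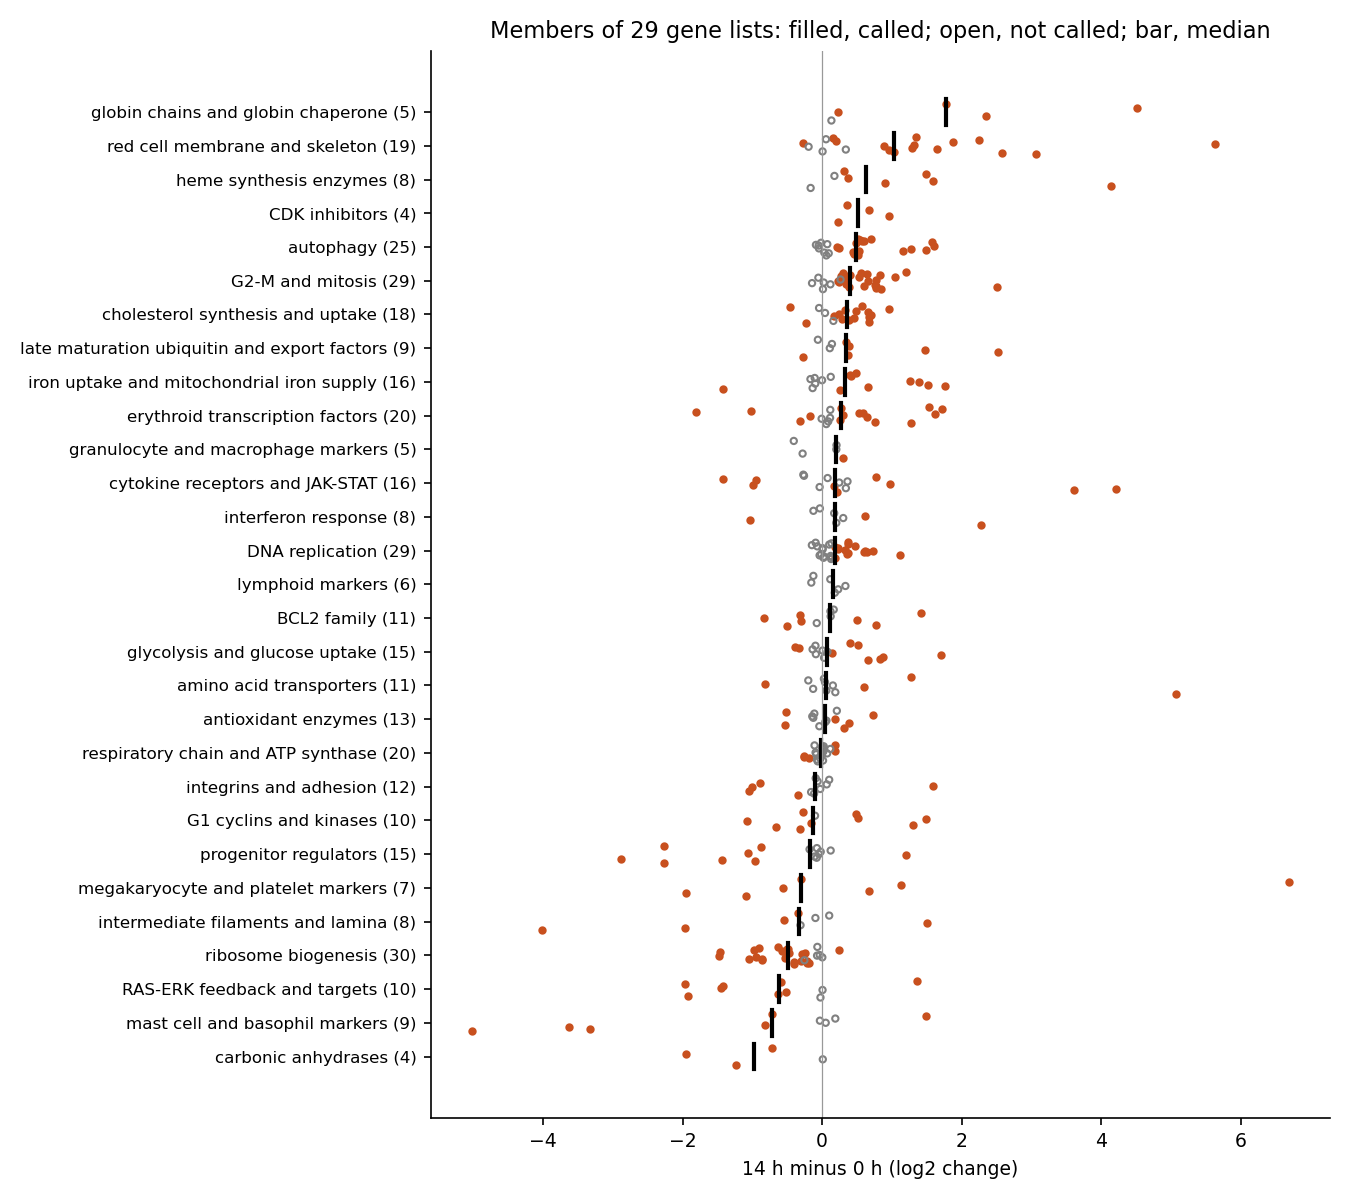
Log2 change from 0 h to 14 h (horizontal) of each tested member of the 29 gene lists (1 list per row, with its number tested), filled where the gene passed the test and open where it did not, with the median as a bar. Membrane and skeleton genes have a median of 1.03, and ribosome biogenesis genes a median of -0.48.

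Genes of other blood lineages did not move as 1 group. Of 9 mast cell and basophil markers tested, 5 fell, Cpa3 and Gzmb among them, and 1 rose (median -0.72), and under control scaling 4 fell and 1 rose. Ms4a2, a chain of the high-affinity IgE receptor, fell by 3.33 to 2.24 ± 0.099 (SD, n = 3), while Il4, a cytokine that mast cells make, rose by 1.49 from 8.90 to 10.39. Over the 13 members on the array, 5 lay above the 60th percentile at 0 h and 2 at 14 h. The log2 of their summed signal ran from 10.01 to 10.16 at 0 h and from 10.46 to 10.63 at 14 h, with Il4 the brightest member.

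Of 7 megakaryocyte and platelet markers tested, 3 rose and 4 fell, and under control scaling 3 rose and 2 fell. Gp5, a subunit of the platelet von Willebrand factor receptor complex, fell by 1.95, and the platelet chemokine Pf4 by 1.08. Itgb3, the platelet integrin beta chain, rose by 1.13, Gp9, another subunit of that complex, by 0.68, and Tubb1, the third member that rose, by 6.69. The log2 summed signal of the 11 members on the array was 9.85 to 9.91 at 0 h and 10.30 to 10.35 at 14 h. At both times 6 of them lay above the 60th percentile. Tubb1 is part of that sum and went from a mean of 2.43 at 0 h to 9.13 at 14 h. The sum without Tubb1 was not computed. With 4 of the 7 tested members lower, the rise of the sum does not describe the members in general.

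Granulocyte and macrophage markers were low throughout. Of 13 on the array, 1 lay above the 60th percentile at 0 h and none at 14 h, and their log2 summed signal was 6.96 to 7.34 and 7.05 to 7.12. Csf1r, the macrophage growth factor receptor, was the 1 of 5 tested that passed, with a change of 0.29 and a 14 h mean of 3.77, and it lost the call without replicate 1 at 0 h (0.19) or any 1 of the 14 h arrays (changes of 0.28 to 0.30). Lymphoid markers had no member above the 60th percentile, log2 summed signals of 6.46 to 6.57 and 6.56 to 6.70, and none of 6 tested passed in limma's test, nor did any reach an unadjusted p under 0.05. Under control scaling Cd79a, a chain of the B cell receptor, passed as higher. What part these cell types' RNA plays in the changes above was not tested.

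Genes of mitosis, and about as many DNA replication genes as not, were higher at 14 h. G2-M and mitosis genes rose in 23 of 29 cases and fell in none, with a median of 0.41 (22 and none under control scaling). Cdc25b, a phosphatase that starts mitosis, gave 7.81, 7.79 and 7.47 at 0 h and 10.36, 10.10 and 10.12 at 14 h, a rise of 2.50 (5.66-fold, adjusted p = 2.65e-11) with no overlap. Nusap1, which bundles spindle microtubules, rose by 1.21, the spindle assembly factor Tpx2 by 1.05, and cyclin A2, Ccna2, by 0.84.

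DNA replication genes rose in 15 of 29 cases and fell in none (median 0.18), and under control scaling 11 rose. Cdc6, which loads the replicative helicase, rose by 1.11 from 10.38 ± 0.097 to 11.50 ± 0.023 (SD, n = 3). The origin recognition subunit Orc1 rose by 0.73 and the helicase cofactor Gins2 by 0.65.

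In the G1 list 4 of 10 cyclins and kinases rose and 5 fell. Ccne1, cyclin E1, rose by 1.49 and Ccnd3, the D cyclin that erythroblasts use to set their number of divisions, by 1.31. Ccnd3, like Slc4a1, had a 3 h mean (8.60) below that at 0 h (9.23) before reaching 10.54. Cdk6, a G1 kinase, fell by 1.07 and cyclin D2, Ccnd2, by 0.65, the latter not passing under control scaling, where 4 rose and 1 fell. The list's median of -0.13 turned to 0.10 there. All 4 CDK inhibitors tested rose: Cdkn1b, p27, by 0.95, Cdkn2c, p18, by 0.67, Cdkn2d, p19, by 0.36 and Cdkn1a, p21, by 0.23. Cdkn2d did not pass without replicate 1 at 14 h (0.29), and Cdkn1a did not pass under control scaling.

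Ribosome biogenesis genes went the other way, with 24 of 30 lower, 1 higher and a median of -0.48. Under control scaling 8 were lower and none higher, and the median was -0.25. Rrp1b, a nucleolar ribosome assembly factor, fell by 1.47 (adjusted p = 2.08e-10), from 10.62, 10.64 and 10.55 to 8.96, 9.17 and 9.26. Polr1b, the second-largest subunit of RNA polymerase I, fell by 1.47 (adjusted p = 0.00153) on arrays of 7.56, 7.42 and 7.56 and 4.81, 6.65 and 6.67. Replicate 1 at 14 h was the low one, and without it the fall was 0.85 (adjusted p = 1.71e-06). Nop16, a nucleolar protein, fell by 1.05, and Tcof1, treacle, a cofactor of ribosomal RNA transcription, by 0.98. The 14 h arrays of Nop16 were 7.58, 8.38 and 8.28, with replicate 1 again the lowest, and its call was kept without that array.

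Metabolic lists were mixed. Cholesterol synthesis genes rose in 13 of 18 cases and fell in 2 (median 0.36), with the isomerase Ebp at 0.95 and lanosterol synthase, Lss, at 0.70. Under control scaling 11 rose and none fell. Glycolysis genes rose in 7 of 15 cases and fell in 2 (median 0.08, and 6 and none under control scaling). These shares were 46.7% and 13.3%, against 22.2% and 22.7% of all genes. The phosphofructokinase subunits Pfkm and Pfkl rose by 1.70 and 0.87, hexokinase 1, Hk1, by 0.83, and the glucose transporter Slc2a1 by 0.66. Pfkm was at 9.63 by 3 h and 10.12 by 7 h, against 10.03 at 14 h. Respiratory chain genes changed little: 2 of 20 rose and 3 fell (median -0.01), each by at most 0.26, beside 44.9% of all genes. These were Sdha, Sdhb and Sdhc of complex II, which gave -0.19, -0.26 and -0.26, and Cox5a and Atp5pb, which gave 0.18 and 0.19, and each of them lost its call under control scaling. The calls of Sdha, Sdhc and Atp5pb were also lost without any 1 of several arrays, with limma adjusted p-values of 0.0509 to 0.233 in those fits.

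Amino acid transporters rose in 3 of 11 cases (27.3%, against 22.2% of all genes) and fell in 1 (9.09%, against 22.7%). Their median was 0.06. Slc6a9, which takes up glycine for heme, rose by 1.27, from 9.23, 9.22 and 9.21 to 10.47, 10.44 and 10.54. Its 3 h mean of 8.50 was below the 0 h arrays. Slc7a5, a large neutral amino acid transporter, rose by 0.60. Slc7a11, the cystine exchanger, fell by 0.82, but from a 0 h mean of 3.25, at the low end of the scale.

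Autophagy genes, whose products clear organelles, rose in 17 of 25 cases and none fell (median 0.48, and 15 and none under control scaling). Atg4d, a protease for ATG8 proteins, rose by 1.60 (3.03-fold), Map1lc3a, an ATG8 protein, by 1.58, the membrane scramblase Atg9a by 1.49, and the lipid transfer protein Atg2a by 1.27. Genes of ubiquitin transfer and nuclear export used by maturing red cells rose in 5 of 9 cases and fell in 1. These shares were 55.6% and 11.1%, against 22.2% and 22.7% of all genes, and under control scaling 5 rose and none fell. The conjugating enzyme Ube2l6 rose by 2.52, from 5.16, 5.25 and 5.28 to 7.72, 7.89 and 7.65, and the erythroid ligase Trim10 by 1.47.

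Filament and lamina genes fell in 4 of 8 cases and rose in 1, and under control scaling 2 fell and 1 rose. Besides Vim, Nefh, the neurofilament heavy chain, fell by 1.96 to 9.07 ± 0.065 (SD, n = 3), and the B-type lamin Lmnb1 by 0.55. The falls of Lmnb1 and of emerin, Emd (-0.34), an inner nuclear membrane protein, did not pass under control scaling. Lmna, the A-type lamin, rose by 1.50, from 10.27, 10.21 and 10.22 to 11.73, 11.70 and 11.77. Among 12 integrins and adhesion genes, 1 rose (8.33%, against 22.2% of all genes) and 4 fell (33.3%, against 22.7%). Itgb2, the leukocyte beta chain, rose by 1.58, while its usual partner Itgal fell by 1.05. The fibronectin receptor chain Itgb1 fell by 1.01 and the hyaluronan receptor Cd44 by 0.89. Their median of -0.10 turned to 0.13 under control scaling, where 3 fell.

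BCL2 family genes, which set the threshold for cell death, rose in 3 of 11 cases (27.3%) and fell in 4 (36.4%). Over all genes 22.2% rose and 22.7% fell. Under control scaling 3 BCL2 family genes rose and 1 fell. Bnip3, a mitophagy receptor, rose by 1.41 and Bcl2l1, which encodes the survival protein BCL-XL, by 0.77. Bid, a promoter of death, fell by 0.83. Bcl2 fell by 0.50, which did not pass without replicate 3 at 0 h (-0.45) or replicate 2 at 14 h (-0.40), or under control scaling. Of 13 antioxidant genes, 4 rose and 2 fell (30.8% and 15.4%, against 22.2% and 22.7% of all genes), with Gclc, the rate-limiting glutathione enzyme, at 0.73 and mitochondrial Sod2 at -0.53. Under control scaling 3 rose and none fell, and Sod2 and glutathione reductase, Gsr (-0.52), lost their calls.

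Carbonic anhydrases fell in 3 of 4 cases. Car1, bright at 0 h, gave 12.69, 12.68 and 12.62 at 0 h and 11.46, 11.37 and 11.45 at 14 h, a fall by 1.23 (adjusted p = 4.07e-10). Car2, the other abundant red cell isozyme, gave 12.93, 12.99 and 13.01 and 12.99, 13.04 and 12.93, with overlapping arrays and a difference of 0.01 (adjusted p = 0.892). Of 8 interferon response genes, 2 rose (25%) and 1 fell (12.5%), shares near or below those of all genes. Usp18, a protease for the ubiquitin-like ISG15, rose by 2.28 and had its highest mean, 6.24, at 3 h. Irf1, a transcription factor of that response, fell by 1.03.

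**Figure D4:**
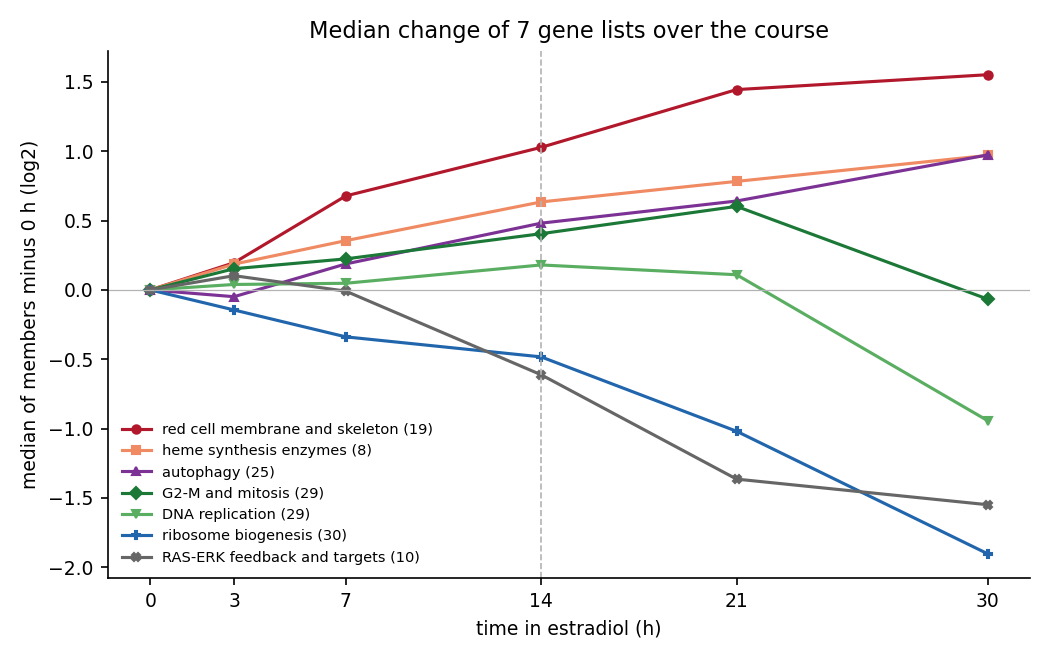
Median log2 change from 0 h (vertical) of selected gene lists against hours in estradiol (horizontal), with 14 h marked. At 14 h the membrane list is at 1.03 and the ribosome biogenesis list at -0.48, and the G2-M list, at 0.41 there, is at -0.07 by 30 h.

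How far the 14 h state lies along the whole course was tested by setting the 14 h mean against the midpoint of the 0 h and 30 h means. A gene above the midpoint had a larger rise, or a smaller fall, from 0 h to 14 h than from 14 h to 30 h. In all, 4452 genes passed (35.0%), 2652 above (20.8%) and 1800 below (14.2%). Under control scaling 1535 passed above and 339 below. Over the tested genes, correlations between arrays were 0.977 to 0.978 between 14 h and 0 h, 0.969 to 0.974 between 14 h and 30 h, and 0.927 to 0.934 between 0 h and 30 h.

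Division genes stood above the midpoint at 14 h nearly without exception. All 29 DNA replication genes passed above it, with a median of 0.66 against -0.001 over all genes, and 27 did under control scaling. Each of these 29 was lower at 30 h than at 14 h, by 0.29 to 2.14. Gins2, for example, had means of 9.29 at 0 h, 9.94 at 14 h and 8.32 at 30 h, 1.13 above the midpoint (adjusted p = 3.49e-08). Of 29 G2-M genes, 28 passed above and none below (25 and none under control scaling), and 8 of 10 G1 cyclins and kinases passed above. Ccne1 stood 1.12 above (adjusted p = 1.59e-09), with means of 9.82, 11.31 and 10.55.

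Ribosome biogenesis genes were also above, 23 of 30 and none below (17 and none under control scaling), their larger fall coming after 14 h. Rrp1b went from 10.60 at 0 h through 9.13 to 7.02 at 30 h. CDK inhibitors lay on the other side, with 3 of 4 below the midpoint and none above (in limma under control scaling none of the 4 passed, and 0 had an unadjusted p under 0.05). Cdkn2c had means of 8.96, 9.63 and 10.71, -0.21 from the midpoint (adjusted p = 0.0160, and -0.08 under control scaling). Bcl2l1 also lay below (-0.45, adjusted p = 4.71e-05), with 10.48 at 30 h against 8.80 at 14 h.

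Several genes far from the midpoint were among the largest changes. Both measures use the 0 h and 14 h means, so this overlap is partly built in. Tubb1 stood 2.60 above the midpoint (adjusted p = 2.06e-10), Dmtn 2.27, Tulp2 2.13 and Gsdma 2.12. Tulp2 had means of 7.68 at 14 h and 7.73 at 30 h. Among the largest falls, Cpa3 (-2.31), Tespa1 (-2.26), Gzmb (-2.19) and Lcp1 (-2.00) lay below the midpoint. However, Cpa3, Gzmb and Lcp1 had by then reached the low end of the scale, where a further fall could not be measured. Tespa1, at a 14 h mean of 3.50, was near that end. Others were close to the midpoint: Slc4a1 was 0.02 from it (adjusted p = 0.854), Kit 0.12 and Lyl1 0.04. A miss does not show that their changes over the 2 intervals were equal.

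Other genes lay outside the range of their 0 h and 30 h means at 14 h. Septin4, a filament-forming GTPase, had means of 7.69 at 0 h, 9.75 at 14 h and 6.73 at 30 h, 2.54 above the midpoint (adjusted p = 5.31e-11). Its 14 h arrays were 9.80, 9.76 and 9.69, all above its 0 h arrays of 7.73, 7.52 and 7.82. Ajuba, a LIM-domain adaptor, had its highest mean at 7 h, with means of 3.23 at 0 h, 7.46 at 7 h and 3.35 at 30 h. Its 14 h arrays of 4.37, 6.56 and 6.37 were spread by replicate 1, and its departure was 2.48 with that array and 3.18 without it (adjusted p = 3.19e-05 and 4.32e-09). Mt2, a metallothionein that binds zinc and copper, dipped instead, from 12.50, 12.42 and 12.43 at 0 h to 9.86, 9.98 and 10.05 at 14 h, and its 30 h mean was 11.40 (-1.97 from the midpoint, adjusted p = 5.44e-12). Abca1, a cholesterol exporter, had means of 8.35, 4.77 and 5.47 (-2.14, adjusted p = 3.00e-08).

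**Figure D5:**
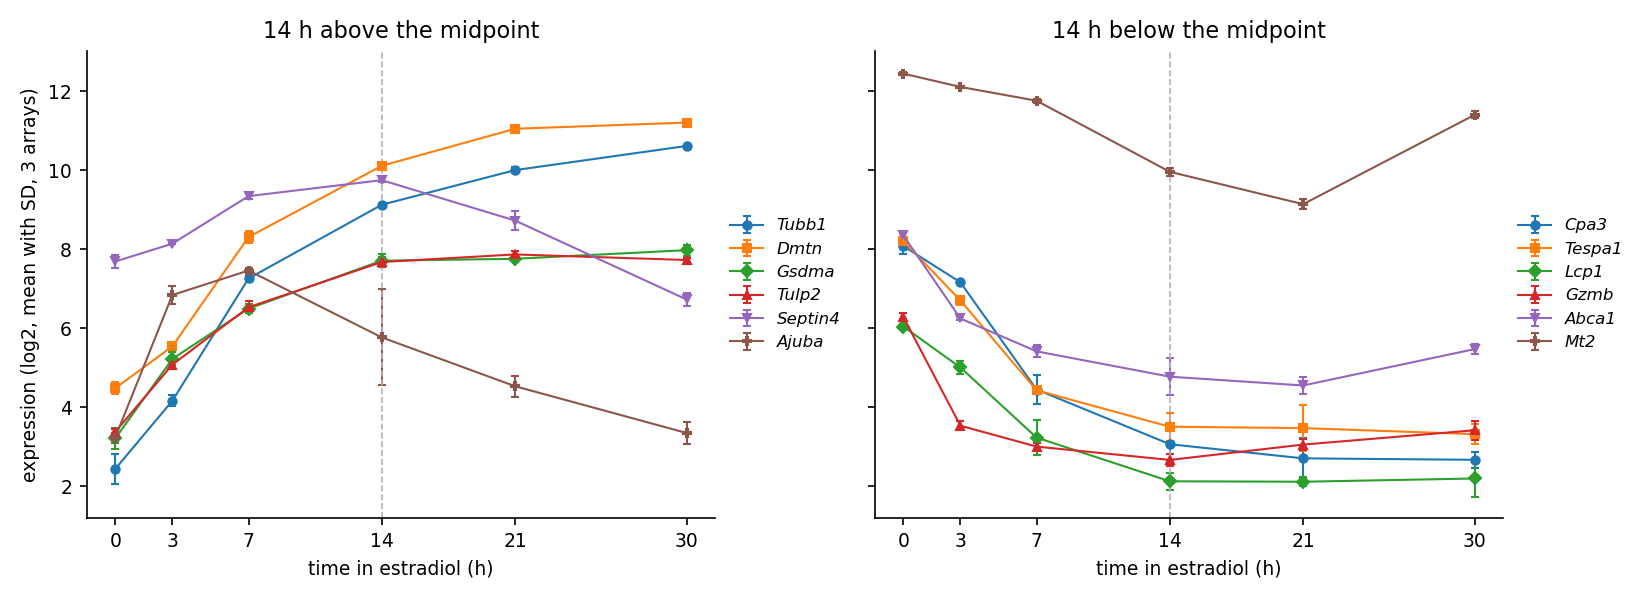
Mean log2 signal with SD of 3 arrays (vertical) against hours in estradiol (horizontal) for the 6 genes farthest above the midpoint at 14 h (left) and the 6 farthest below (right). Septin4 and Ajuba are higher at 14 h than at 0 h and 30 h. Mt2, Abca1, Gzmb and, by only 0.07 against 30 h, Lcp1 have lower means at 14 h than at both. Mt2 has a 30 h mean of 11.40 against 12.45 at 0 h. The other genes have their larger change before 14 h.

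Car1 shows the opposite order, with its larger fall after 14 h: means of 12.66 at 0 h, 11.43 at 14 h and 6.42 at 30 h put it 1.89 above the midpoint (adjusted p = 5.44e-12). Nefh (0.91) and Etv5 (1.01) were likewise above, with 30 h means of 5.29 and 3.86. Hbb-y was the reverse, a rise that lay mostly after 14 h (-1.65, adjusted p = 0.000494). Car13, a cytosolic carbonic anhydrase, fell by 0.72 by 14 h and stood at 7.91 at 30 h, above its 0 h mean of 7.19.

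The array's own checks of RNA length moved in part. The log2 gap between 3′ and 5′ probe sets was 1.89 at 0 h and 1.87 at 14 h for Actb, 1.13 and 1.19 for Gapdh, and 1.79 and 2.03 for Tfrc, the transferrin receptor. It went from -0.51 to -0.06 for 18S ribosomal RNA and from 1.77 to 3.11 for pyruvate carboxylase. Their part in the results was not tested.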

How the data were processed

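Expression was measured on Affymetrix mouse arrays, 3 at each of 6 times. The authors deposited log2 values for 45101 probe sets (64 of them controls), per the values of the deposited table. The steps of summarising and scaling, not given in the sources used here, could alter every value. The number of arrays limits the precision. Of the probe sets, 34958 name 1 gene in the platform annotation, 932 several and 9211 none. Each of 18194 genes was represented by its probe set with the highest mean over all arrays, and the test kept 12720 genes whose signal exceeded the 40th percentile in 3 or more arrays.

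From these values, limma 3.58.1 in R 4.3.3 was fitted to all 18 arrays with a mean per time and 12 residual degrees of freedom. The contrasts were 14 h minus 0 h and 14 h minus the average of 0 h and 30 h. P-values were Benjamini-Hochberg adjusted over all genes, with a threshold of 0.05. The contrast of 14 h minus 0 h was tested on simulated data, in which far fewer genes changed than passed here. The midpoint contrast was not tested in that way. Folds are 2 to the power of the log2 difference.

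Members and 29 gene lists were chosen with earlier results of these data known. Named genes were the 12 largest rises and falls above the mean 60th percentile of 5.28 (unnamed transcripts skipped), the 5 most changed members of each list (all, where fewer), the 6 largest departures from the midpoint on each side, and Gata1, Gata2, Zfpm1, Klf1, Kit, Alas2 and Myc. Others named are members that a count singles out. Replicate numbers did not pair the 0 h and 14 h arrays, since correlations of same-numbered deviations were 0.086, -0.083 and -0.044. Alternatives covered the filter, the scaling, the probe set choice, the variance model, the arrays fitted, the replicate block and each array left out.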

Additional observations from a re-analysis of the deposited data

How the results depend on the processing

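Of 149 named genes that passed at 14 h, 131 kept call and direction in each setting that gave them a value, testing every probe set and the 2-fold minimum apart. Testing every probe set gave 10163 calls (4886 higher, 5277 lower), and asking for at least 2-fold gave 878 (403 and 475). Scaling to hybridisation controls gave 3603 calls, of which 812 were lower, and 1874 departures from the midpoint, 1535 above and 339 below. It cost 13 named genes their call and turned Sdha to 0.0428. Among genes that had not passed it turned Pax5 to 0.0747, Ebf1 to 0.104 and Slc1a4 to 0.0316. It also turned the medians of progenitor genes to 0.0499, of G1 cyclins and kinases to 0.0960 and of integrins to 0.126. Averaging probe sets put Slc1a4 at 0.117. Leaving out probe sets that match several transcripts put Socs3 at 0.19 on a dim probe set that did not pass. The median of granulocyte and macrophage markers was -0.280 with a 60th percentile filter, -0.0378 with averaged probe sets and -0.0414 without a filter. Leaving out 1 array gave 5132 to 5485 calls (2449 to 2820 higher, 2559 to 2724 lower), and 3728 to 4287 at the midpoint (2178 to 2601 above, 1426 to 1776 below), and Car2 ran from -0.0147 to 0.0381. With a replicate block, 2818 genes were higher and 2838 lower, and 2587 were above and 1766 below the midpoint, and Sdhc alone lost its call among named genes. The causes were not tested. Signals under the 40th percentile limit what can be said of genes that start or end there.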

Other observations

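The 24 genes that were low on replicate 1 at 14 h alone were picked after their values were seen. Rad1, a subunit of the DNA damage checkpoint clamp, read 6.07 there against 8.24 and 8.36 on the other arrays, and Noc3l, a nucleolar protein, 5.83 against 7.88 and 7.87. B4galt7, a galactosyltransferase of proteoglycan synthesis, read 7.22 against 9.13 and 9.15. With that array 11 of the 24 genes passed between 0 h and 14 h, 10 of them lower. Over all genes 44.9% passed, and 22.7% passed as lower. Without it 14 passed, 6 of them lower, 7 genes passed in both, and 8 had the opposite sign. Ttll1, a tubulin-modifying enzyme subunit, gave 0.29 with the array and 0.80 without it (adjusted p = 0.454 and 0.000147), and Supt7l, a subunit of the STAGA coactivator, gave -0.03 and 0.44 (adjusted p = 0.935 and 8.81e-05).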
